A study of Mus musculus with 2 samples.

Results

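The 37 genes described here encode the urea cycle and the enzymes that break down amino acids in the liver. They are a fixed list of symbols, all found in both deposited matrices, which hold 32286 gene entries each with the reporter. They fall into 7 pathways: the urea cycle with 7 genes, proline and glutamate with 6, histidine and serine with 5, transaminases with 4, tyrosine with 5, tryptophan with 7, and branched chain amino acids with 3. The list was drawn by pathway and not by a threshold on measured values, but earlier results of these data were known when it was chosen.

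Hepatocytes convert the ammonia freed from amino acids into urea. Cps1 makes carbamoyl phosphate in the mitochondrion, Otc joins it to ornithine, and Ass1, Asl and Arg1 complete the cycle in the cytosol, while Nags makes the activator of Cps1 and Slc25a15 carries ornithine across the mitochondrial membrane. The cycle and the use of glutamine by Gls2 are known as periportal activities. The few hepatocytes around the central vein instead hold Glul, which makes glutamine from glutamate and ammonia, and Oat, which turns ornithine towards glutamate.

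The cells came from perfused livers of mice on a C57BL/6J;129S6/SvEvTac background, and were profiled as 2 droplet libraries with 10x 3' chemistry. The DDC library pooled WT mice on normal diet (0 day) with Sox9-EGFP mice after 2 weeks of DDC, a diet that injures the bile ducts; the Sox9 promoter drives EGFP in progenitor-like and biliary cells. The second library, called here the DDC and cMet library, pooled WT mice on normal diet at 0 day with Sox9-CreERT2:Rosa26-mTmG mice at 5 months of DDC diet after cMet was delivered by HTVi (hydrodynamic tail vein injection), and the protocol names its treated cells as liver cancer cells. There were 2 mice at each time, and the barcodes do not tell mice, times or genotypes apart. Diet, cMet, genotype, time and library therefore cannot be told apart. With 1 library per group there is no replicate check and no test, and every interval below is a 95% interval that covers counting error only. In bulk sums over cells, fewer cells of a type and less RNA per cell cannot be told apart.

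The 2 libraries held 8694 and 18316 barcodes with 104523363 and 186997180 UMIs (unique molecular identifiers, 1 per captured transcript). A barcode was kept if it had 500 genes or more, 2000 UMIs or more, and mitochondrial UMIs of no more than 30%; 2903 and 8099 were kept, with medians of 29588 and 13215 UMIs, and 50 barcode sequences occurred in both libraries. Alb-high cells had at least 100 Alb UMIs per 10000 UMIs and less than 10 per 10000 summed over leukocyte, endothelial and stellate markers. The DDC library held 1624 of them and the DDC and cMet library 4641, with medians of 37655 and 23769 UMIs. Their 6 hepatocyte markers summed to 571 and 745 UMIs per 10000, and their 9 macrophage markers to 0.867 and 1.40. Near the Alb threshold, from 20% below to 25% above it, lay 218 and 151 kept barcodes. A level below is a gene's UMIs per 10000 UMIs, summed over the cells of a set.

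Most of the 37 genes had higher levels in the Alb-high cells of the DDC and cMet library than in those of the DDC library. At least 2-fold higher were 12 of 37 (32.4%), against 5.61% of all 13214 genes with at least 50 UMIs. None was at least 2-fold lower, against 11.9% of all genes. In all, 30 of 37 had a ratio above 1, a count not set here against the share of all genes above 1. The median log2 ratio of the 37 was 0.80, where that of all genes was -0.27. Relative to the median of all genes, 19 were at least 2-fold higher and 0 lower, but the share of all genes past that centred threshold was not computed. The summed level of the urea cycle was 33.9 and 55.4 per 10000, that of the tyrosine genes 11.3 and 25.9, and that of the tryptophan genes 8.63 and 18.0.

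**Figure D1:**
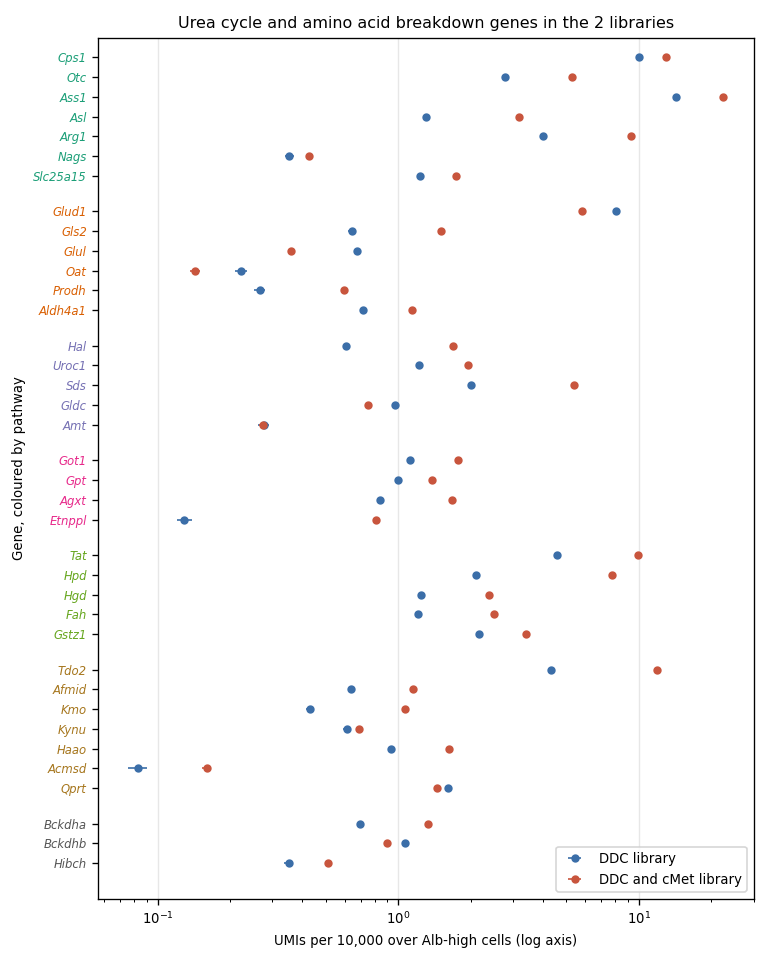
Level of each of the 37 genes (UMIs per 10,000, log axis) over the Alb-high cells of the DDC library (blue, 1624 cells) and of the DDC and cMet library (red, 4641 cells), with genes coloured by pathway and bars for the 95% counting interval. The red point lies to the right of the blue one for 30 of 37 genes, farthest for Etnppl. It lies to the left for Glud1, Glul, Oat, Gldc, Qprt, Bckdhb and, barely, Amt.

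In the urea cycle all 7 genes had higher levels in the DDC and cMet library, and Asl and Arg1 passed 2-fold. The level of Ass1, which joins citrulline and aspartate, was 14.2 and 22.5 per 10000, and that of Cps1 was 10.0 and 13.0, a log2 ratio of 0.38 (0.37 to 0.39). The smallest differences of the cycle lay at its entry, in Cps1 and in Nags (0.353 and 0.428, log2 ratio 0.28). The lyase Asl had 1.30 and 3.17 per 10000, a log2 ratio of 1.28 (1.25 to 1.32). The arginase Arg1, which releases urea, had 4.00 and 9.24, a log2 ratio of 1.21 (1.19 to 1.23). Otc and the carrier Slc25a15 lay between these, with log2 ratios of 0.93 and 0.51.

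The tyrosine genes had the highest median log2 ratio of the 7 pathways, 1.05, with 3 of 5 genes past 2-fold. Hpd, the dioxygenase that forms homogentisate, had 2.10 and 7.72 per 10000, a log2 ratio of 1.88 (1.85 to 1.91). Tat, the aminotransferase that starts the pathway, had 4.57 and 9.91 (log2 ratio 1.12), and Fah, the last enzyme, 1.21 and 2.49 (log2 ratio 1.05). Hgd and Gstz1, which act between Hpd and Fah, had log2 ratios of 0.94 and 0.65.

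In the tryptophan pathway 2 of 7 genes passed 2-fold and 6 had higher levels in the DDC and cMet library. Tdo2, the dioxygenase that opens the tryptophan ring, had 4.32 and 11.9 per 10000, a log2 ratio of 1.46 (1.44 to 1.48). Kmo, the kynurenine hydroxylase, had 0.432 and 1.07, a log2 ratio of 1.31 (1.25 to 1.37). Acmsd, which diverts the pathway away from NAD, Afmid and Haao had log2 ratios of 0.95, 0.86 and 0.80. Kynu and Qprt, the latter the enzyme that commits quinolinate to NAD, had log2 ratios of 0.16 and -0.16.

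Among the other genes, Etnppl had the largest ratio. This lyase of phosphoethanolamine, which belongs to the aminotransferase family, had 0.129 and 0.809 per 10000, a log2 ratio of 2.64 (2.54 to 2.75). Agxt, the glyoxylate aminotransferase, had a log2 ratio of 0.99, and Got1 and Gpt 0.65 and 0.47. The serine dehydratase Sds had 2.01 and 5.38 per 10000 (log2 ratio 1.42), and the histidine lyase Hal 0.607 and 1.69 (log2 ratio 1.48). Uroc1, which acts after Hal, had a log2 ratio of 0.67. The glycine cleavage genes Gldc and Amt had -0.37 and -0.01.

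The proline and glutamate genes were divided. The glutaminase Gls2 had 0.642 and 1.51 per 10000 (log2 ratio 1.23) and the proline dehydrogenase Prodh 0.265 and 0.594 (log2 ratio 1.16), while Aldh4a1, which acts after Prodh, had a log2 ratio of 0.67. Glul was lower in the DDC and cMet library, with 0.675 and 0.360 per 10000 and a log2 ratio of -0.91 (-0.97 to -0.85). Oat had 0.223 and 0.143 (log2 ratio -0.63). The glutamate dehydrogenase Glud1 had 8.04 and 5.82 (log2 ratio -0.47). Of the branched chain genes, Bckdha had a log2 ratio of 0.93, Hibch 0.53 and Bckdhb -0.25.

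Other genes of amino acid metabolism, grouped in lists that hold none of the 37, gave a background for this comparison. Of 37 measured genes of other breakdown steps, 6 were at least 2-fold higher and 0 lower, led by Sardh, the sarcosine dehydrogenase, with a log2 ratio of 1.70. Of 9 genes of amino acid synthesis, 0 were at least 2-fold higher and 6 lower. The asparagine synthetase Asns had 0.368 per 10000 in the DDC library and 0.0895 in the DDC and cMet library (log2 ratio -2.04). Of 11 measured carriers and transporters, 2 were higher and 2 lower, and the glutamine transporter Slc38a3 had a log2 ratio of 2.03. Of 12 regulators, 2 were at least 2-fold higher, Onecut1 (log2 ratio 1.24) and Cebpa (1.01), and none lower. Alb itself was at 282 and 424 per 10000, and Spp1, a biliary and progenitor marker, at 31.4 and 4.48, and their part in these differences was not tested.

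The genes differed in how many Alb-high cells held them. Over cells with at least 10000 UMIs, 1349 and 2969, 17 and 25 of the 37 genes had a UMI in more than 90% of cells, 3 in less than 50% in each library, and the median gene in 88.5% and 94.9%. Cps1 had a UMI in 99.9% and 99.7%, with a median per-cell level of 9.61 and 11.6 per 10000. Oat had a UMI in 22.0% and 14.1% of those cells, and the tenth of cells with most Oat held 85.6% and 92.2% of its UMIs. For Glul these shares were 62.5% and 51.4%, and for Etnppl 55.3% and 37.1%. For Cps1 they were 18.7% and 19.7%. Oat was thus the most unevenly held of the 37 genes in both libraries.

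Cells that carried markers of other cell types gave a background for hepatocyte RNA. Macrophage-marker cells had at least 10 macrophage marker UMIs, less than 10 endothelial marker UMIs and less than 100 Alb UMIs per 10000. They numbered 331 and 1266. Endothelial-marker cells were set by the same rule with the marker lists exchanged, and 156 and 304 cells past both limits were left out of each. Alb stood there at 5.90% and 5.97% of its level in Alb-high cells. Cps1 stood at 7.30% and 7.17% of its Alb-high level, and the median of the 37 genes was 15.7% and 9.37%. Of the 37, 11 and 23 were below 2 times the share of Alb. Glul and Oat did the opposite: Glul had 2.23 and 1.91 per 10000 in macrophage-marker cells, 330% and 531% of its Alb-high level, and Oat had 0.659 and 0.640, 296% and 446%. In the 76 and 337 endothelial-marker cells Glul had 4.72 and 3.25 per 10000, and Oat 1.27 and 0.732. Glud1 stood at 42.2% and 46.9% and Got1 at 56.4% and 39.0% in macrophage-marker cells. After each cell was thinned to 2000 UMIs, 35.6% (30.5 to 41.1) of macrophage-marker cells and 9.05% (7.70 to 10.6) of Alb-high cells of the DDC library had a Glul UMI, and without thinning 88.2% and 57.6%.

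**Figure D2:**
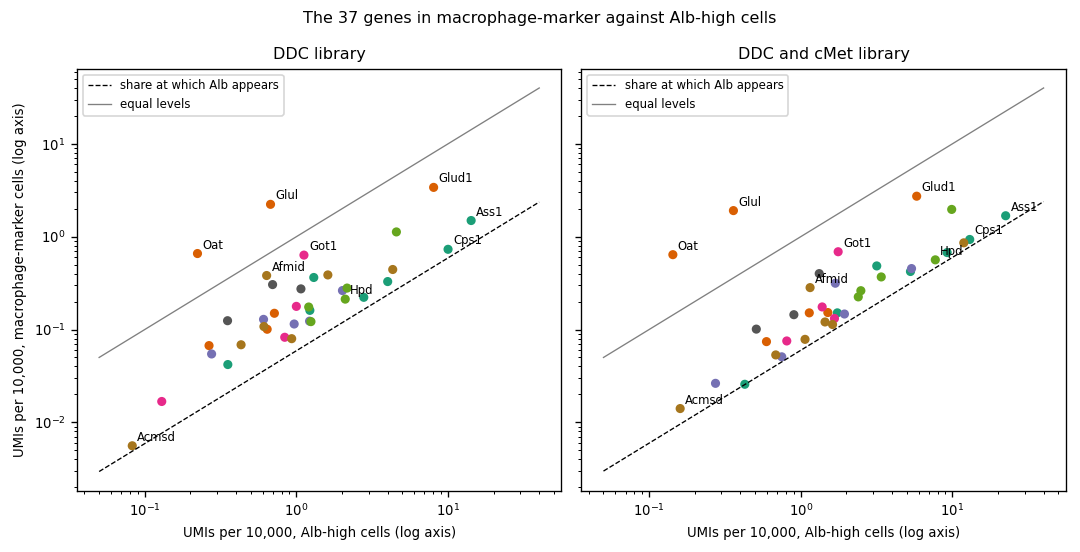
Level of each of the 37 genes in macrophage-marker cells against its level in Alb-high cells (UMIs per 10,000, log axes) in the DDC library (left) and the DDC and cMet library (right), with points coloured by pathway as in the plot of levels by library. The dashed line marks the share at which Alb appears in macrophage-marker cells (5.90% and 5.97%) and the grey line equal levels; Glul and Oat lie above the grey line in both libraries.

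In the DDC library, 33 of the 37 genes had lower levels in Alb-high cells with the most EGFP than in those with 0 EGFP. Sds, Kynu, Glud1 (log2 ratio 0.09) and Qprt (0.05) had higher ones. These counts are not set against the share of all genes in each direction. Of the 37 genes, 30 kept their direction under every alternative described below in which they had enough UMIs. Cells with at least 10000 UMIs were placed by EGFP UMIs per 10000 in 4 bins: 0 (774 cells), above 0 to below 1 (377), 1 to below 3 (140), and 3 or more (58). The bin at 0 holds cells of WT mice and EGFP-negative cells of Sox9-EGFP mice, which cannot be told apart. Between the end bins, 12 of 37 genes were at least 2-fold lower in EGFP-rich cells, against 5.11% of 10966 genes, and 0 were at least 2-fold higher, against 6.60%. The median log2 ratio was -0.74 for the 37 and 0.17 for all genes, and 19 of 37 were lower at each step over the 4 bins. Relative to the median of all genes, 15 were at least 2-fold lower, again with no share of all genes computed.

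**Figure D3:**
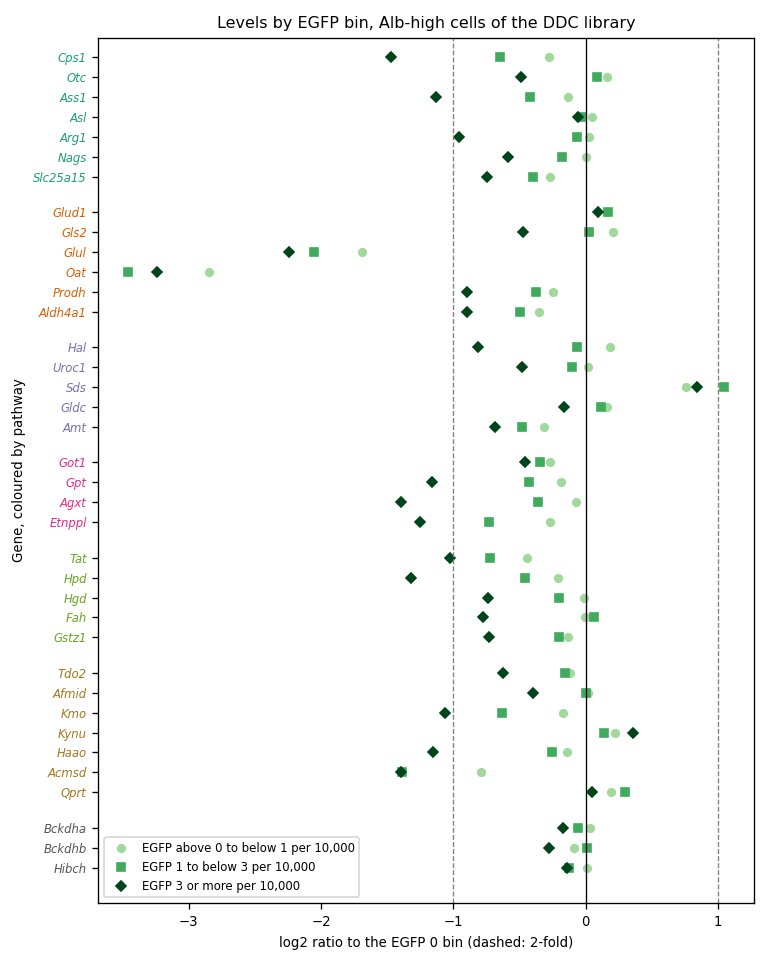
The log2 ratio of each gene's level in the 3 bins with EGFP to its level in the bin with 0 EGFP, Alb-high cells of the DDC library; genes are coloured by pathway and dashed lines mark 2-fold. In the bin of 3 or more (dark diamonds) 12 genes lie left of the lower dashed line, Oat and Glul farthest, and Sds lies at 0.84, right of 0 in each bin.

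Urea cycle genes followed different courses over these bins. Cps1 had 11.4, 9.44, 7.30 and 4.11 per 10000 from the bin at 0 to the bin of 3 or more, a log2 ratio of -1.47 (-1.56 to -1.39) between the ends. Ass1 had 15.5, 14.2, 11.6 and 7.06 (log2 ratio -1.13). Arg1 had 4.08, 4.15, 3.89 and 2.10 (log2 ratio -0.96), so its difference lay mainly at the last step. Asl had 1.29, 1.33, 1.26 and 1.23, a log2 ratio of -0.06 (-0.22 to 0.09), a level that did not differ beyond counting error between the end bins. Slc25a15, Nags and Otc had log2 ratios of -0.75, -0.59 and -0.49.

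Of the other pathways, the transaminases had 3 of 4 genes at least 2-fold lower: Agxt (log2 ratio -1.39), Etnppl (-1.25) and Gpt (-1.16). Agxt had 0.887, 0.844, 0.691 and 0.337 per 10000 over the bins. In the tyrosine pathway Hpd had 2.34, 2.02, 1.70 and 0.937 (log2 ratio -1.32) and Tat had 5.33, 3.91, 3.22 and 2.62 (log2 ratio -1.02), the latter with its largest step at the first. In the tryptophan pathway Acmsd (-1.39), Haao (-1.16) and Kmo (-1.06) passed 2-fold, while Kynu had 0.565, 0.658, 0.620 and 0.723 (log2 ratio 0.36, 0.14 to 0.56) and Qprt a log2 ratio of 0.05. The branched chain genes had log2 ratios between -0.28 and -0.14.

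Sds went the other way. Its level was 1.45, 2.46, 2.996 and 2.61 per 10000 over the bins, lowest where EGFP was 0, with a log2 ratio of 0.84 (0.73 to 0.95). Its difference lay mainly at the first step: against the bin above 0 to below 1 the log2 ratio was 0.09 (-0.03 to 0.20), not detectable beyond counting error, and within the periportal landmark bins 4 and 5 described below it was 0.23 (0.08 to 0.37). Both were chosen after seeing the data. Sdsl, a related serine dehydratase gene that is not among the 37, had 0.293 and 0.730 in the end bins (log2 ratio 1.32) and was the 1 of 37 measured genes of other breakdown steps that was at least 2-fold higher. Hal, next to Sds in its pathway list, had 0.593, 0.673, 0.566 and 0.337 (log2 ratio -0.81).

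Oat and Glul had the largest differences, most of which lay at the first step. Oat had 0.389 per 10000 at EGFP 0, then 0.0541, 0.0355 and 0.0413 (12 UMIs in the last bin), a log2 ratio of -3.24 (-4.19 to -2.43). Glul had 1.04, 0.323, 0.251 and 0.220, a log2 ratio of -2.24 (-2.62 to -1.89). The bin at 0 also had more pericentral RNA: 6 pericentral landmark genes, none of them among the 37, summed to 11.9 per 10000 there, 5.83 and 4.89 in the middle bins and 2.82 in the bin of 3 or more. Against the bin above 0 to below 1 in place of the bin at 0, a comparison chosen after seeing the data, Glul and Oat were no longer past 2-fold, and 5 of 37 genes were at least 2-fold lower (Cps1, Ass1, Agxt, Hpd and Haao), against 2.64% of all genes, and 0 higher, against 3.51%.

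Among cells with a periportal landmark profile (bins 4 and 5 of the index described below; also chosen after seeing the data), 38 cells with EGFP of 3 or more were set against 246 with 0. There Glul had 0.252 and 0.278 per 10000, a log2 ratio of -0.14 (-0.61 to 0.30), and Oat had too few UMIs to be placed. Of 36 measured genes 6 were at least 2-fold lower, against 3.10% of all genes, and 0 higher, against 4.35%. Cps1 (log2 ratio -1.18, -1.29 to -1.07), Agxt (-1.39), Etnppl (-1.75), Haao (-1.07) and Acmsd (-1.62) were among the 12 of the whole set, and Gls2 (-1.04) was added. The whole bin of 58 cells held 18 Etnppl and 12 Acmsd UMIs, so the ratios of Etnppl and Acmsd here rest on no more than these. Haao and Gls2 lay just past 2-fold. The median log2 ratio was -0.60 for the 36 genes and 0.16 for all genes. The lower Cps1 with EGFP was therefore present within landmark bins 4 and 5, and the lower Glul was not detectable there. Periportal landmarks did not move alike with EGFP. From the bin at 0 to the bin of 3 or more, Cyp2f2 had 1.66 and 0.441 per 10000, and Hsd17b13 had 9.31 and 13.7. Position in the lobule may therefore differ between the cells compared.

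Other RNA moved with the EGFP bins as well. From the bin at 0 to the bin of 3 or more, Alb had 299, 282, 249 and 210 per 10000, Sox9 had 0.683, 1.05, 1.44 and 1.96, and Spp1 had 11.9, 32.9, 67.6 and 140. The 8 progenitor and biliary markers summed to 13.6 and 147 in the end bins, and macrophage markers to 0.865 and 0.713. Median UMIs per cell were 37186 and 52868. The part of these in the differences was not tested, other than through the Alb threshold. With no Alb threshold, 20 of 37 genes were at least 2-fold lower (6.08% of all genes) in 157 against 873 cells, and with Alb of at least 200 per 10000 4 were (5.48% of all genes) in 23 against 542 cells, and 1, Sds, was at least 2-fold higher (4.20%). In the latter set the lower genes were Oat, Glul and Acmsd of the 12 above, with Prodh added. Agxt, Ass1, Cps1, Etnppl, Gpt, Haao, Hpd, Kmo and Tat were no longer past 2-fold there. Cps1 had a log2 ratio of -0.93 (-1.04 to -0.83) in that set, just under the 2-fold threshold.

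Zonation was read within each library from an index of 6 pericentral landmarks (Cyp2e1, Cyp1a2, Rgn, Slc1a2, Lect2, Gulo) against 6 periportal ones (Cyp2f2, Hsd17b13, Pigr, Ctsc, Mfsd2a, Hsd17b6), over Alb-high cells with at least 10 landmark UMIs. Cells were ranked and divided into 5 equal bins, from pericentral (bin 1) to periportal (bin 5). Oat and Glul had their highest levels in bin 1 of both libraries, though Glul was not past 2-fold in the DDC and cMet library (log2 ratio -0.66). Sds, Hal, Gls2, Gldc and Etnppl had higher levels in bin 5 than in bin 1. Cps1, Ass1 and Arg1 had lower levels in bin 5 of the DDC library and higher ones in bin 5 of the other, while Asl was higher and Nags lower in bin 5 of both. Across bin 5 against bin 1, 2 of 37 genes were at least 2-fold higher in the DDC library (5.81% of 10469 genes) and 3 lower (3.13%). In the DDC and cMet library 5 were higher (2.94% of 11167 genes) and 1 lower (3.24%).

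**Figure D4:**
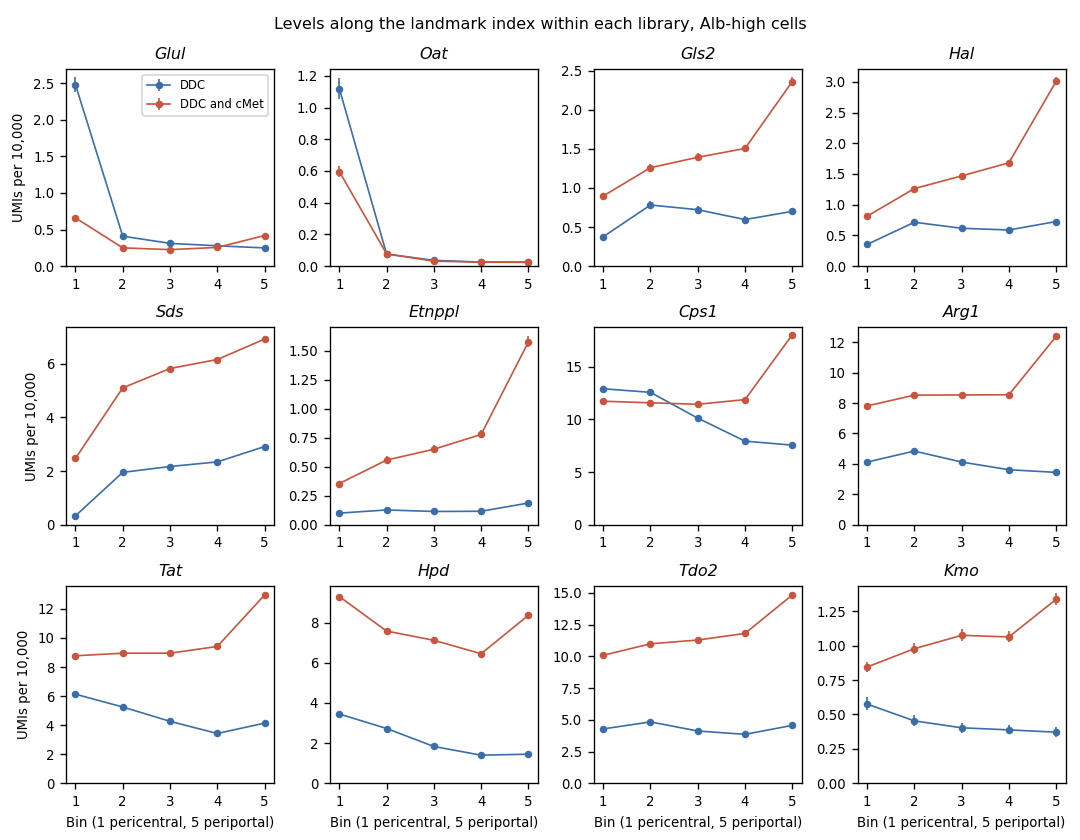
Levels of 12 of the genes (UMIs per 10,000) over 5 bins of the landmark index from pericentral (1) to periportal (5), in Alb-high cells of the DDC library (blue) and of the DDC and cMet library (red), with 95% counting intervals. From bin 2 on Oat is near 0 in both libraries, Hal, Gls2 and Etnppl climb towards bin 5 in the DDC and cMet library, and Cps1 has its lowest level in bin 5 of the DDC library and its highest in bin 5 of the other.

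Oat had 1.12 per 10000 in bin 1 of the DDC library and then 0.0760, 0.0361, 0.0256 and 0.0257, a log2 ratio of -5.45 (-6.00 to -4.94) between bins 5 and 1. In the DDC and cMet library it had 0.596, 0.0771, 0.0312, 0.0249 and 0.0235, a log2 ratio of -4.66 (-5.05 to -4.30). The course was alike in both libraries, with most Oat UMIs in bin 1. Glul had 2.48, 0.409, 0.311, 0.278 and 0.249 in the DDC library (log2 ratio -3.32, -3.49 to -3.15). In the DDC and cMet library it had 0.659, 0.249, 0.225, 0.256 and 0.417 (log2 ratio -0.66, -0.77 to -0.55), with a second, smaller high in the periportal bin. Macrophage markers, whose cells hold more Glul, summed to 1.42 and 1.31 in bins 1 and 5 of that library, and endothelial markers to 0.202 and 0.300.

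The promoter windows of Oat and Glul are shown because these genes had the steepest zonation in the DDC library and the largest differences with EGFP, and those of Hal and Hgd because they were the members with a match to the C/EBP motif searched, a choice made after the matches were seen. RefSeq promoters (build GRCm38.p6) were matched for 30 of 37 genes, and the 250 bases before each start site were read 5′ to 3′ on the gene's strand. Oat lies on the minus strand at chr7:132576399-132576648, and Glul, Hal and Hgd on the plus strand at chr1:153899679-153899928, chr10:93488518-93488767 and chr16:37579903-37580152. Capitals mark CCAAT (either strand) in Oat and Glul, a motif added after the windows had been seen, and TTGCNNAA (C/EBP, either strand) in Hal and Hgd.
Oat: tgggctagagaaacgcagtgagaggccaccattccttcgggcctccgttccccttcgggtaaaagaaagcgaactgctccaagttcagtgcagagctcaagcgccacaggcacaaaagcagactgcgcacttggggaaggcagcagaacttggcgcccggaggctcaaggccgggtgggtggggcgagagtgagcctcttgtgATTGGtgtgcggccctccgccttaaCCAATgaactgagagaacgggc
Glul: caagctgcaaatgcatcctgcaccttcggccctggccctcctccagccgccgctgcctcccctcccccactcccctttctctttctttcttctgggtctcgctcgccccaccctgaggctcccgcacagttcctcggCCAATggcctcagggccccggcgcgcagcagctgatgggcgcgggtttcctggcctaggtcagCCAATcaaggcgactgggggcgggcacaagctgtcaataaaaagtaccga
Hal: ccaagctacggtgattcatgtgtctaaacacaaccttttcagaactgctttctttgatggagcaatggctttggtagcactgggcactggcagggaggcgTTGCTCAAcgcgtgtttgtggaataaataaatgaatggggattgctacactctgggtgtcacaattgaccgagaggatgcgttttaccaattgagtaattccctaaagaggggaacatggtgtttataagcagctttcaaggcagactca
Hgd: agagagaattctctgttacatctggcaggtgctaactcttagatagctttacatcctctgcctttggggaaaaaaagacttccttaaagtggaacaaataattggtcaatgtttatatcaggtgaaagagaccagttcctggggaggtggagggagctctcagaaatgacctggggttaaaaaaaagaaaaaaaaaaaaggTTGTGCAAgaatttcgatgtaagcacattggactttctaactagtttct
TTGCNNAA was in 2 of 30 promoters of the list, Hal and Hgd, and in 9.55% of all 27025 windows. CCAAT was in 13 of 30 (43.3%) and in 34.5% of all windows, with 2 matches each in Oat and Glul. CAAAGTCCA (HNF4A) was in 0 of 30 and 0.381% of all windows, and the palindromic HNF1 motif was in 0 of 30 and 0.0074% of all. The windows of Oat and Glul hold 60.0% and 64.8% G and C, those of Hal and Hgd 45.6% and 38.8%, beside a median of 52.0% over all windows. A match is a description of the letters and not of binding.

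In both libraries Sds, Hal, Etnppl, Gls2 and Gldc had the highest log2 ratios of bin 5 to bin 1. Sds had 0.332, 1.95, 2.17, 2.34 and 2.91 per 10000 over bins 1 to 5 in the DDC library, the 1 gene of 37 that was higher at each step there (log2 ratio 3.13, 2.97 to 3.30). Its levels in the DDC and cMet library were 2.47, 5.10, 5.82, 6.16 and 6.92 (log2 ratio 1.48). Hal had 0.353, 0.714, 0.616, 0.588 and 0.726 in the DDC library (log2 ratio 1.04, 0.86 to 1.22) and 0.813, 1.26, 1.47, 1.68 and 3.01 in the other (log2 ratio 1.89, 1.81 to 1.96). In the DDC library the step of Hal lay between bins 1 and 2, with no further climb beyond it. Gls2 had log2 ratios of 0.90 and 1.40, Gldc 0.89 and 1.77, and Etnppl 0.91 and 2.15, past 2-fold in the DDC and cMet library. Etnppl reached 1.58 per 10000 in bin 5 of the latter, from 0.355 in bin 1. Uroc1 had log2 ratios of 0.34 and 0.84, and Got1 0.25 and 0.91.

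Cps1 had 12.9, 12.6, 10.1, 7.93 and 7.55 per 10000 from bin 1 to bin 5 of the DDC library, a log2 ratio of -0.77 (-0.81 to -0.73). Its levels were 11.7, 11.6, 11.4, 11.9 and 18.0 over the same bins of the DDC and cMet library, a log2 ratio of 0.62 (0.60 to 0.64). Its level was therefore flat over 4 bins there and higher in the most periportal one. Ass1 had log2 ratios of -0.57 and 0.41, Arg1 of -0.26 and 0.66, and Asl of 0.16 and 0.60. Of the 7 urea genes 1 had a ratio above 1 in the DDC library and 6 in the DDC and cMet library; Nags had -0.36 and -0.48. The difference between the libraries was not tested. The periportal landmarks of bin 5 also differed between them: Cyp2f2 had 2.29 per 10000 in the DDC library and 12.0 in the other, and Hsd17b13 had 15.1 and 8.48. Bin 5 may therefore hold unlike cells in the 2 libraries.

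The direction for the urea genes of the DDC library differed with the landmarks, which also set the cells. Cells needed at least 10 UMIs of the landmarks in use, and bins 1 and 5 of the full index held 303 and 302 cells. Whether the landmarks or the cells went with the direction was not tested. With Cyp2e1 against Cyp2f2 alone (121 and 120 cells), Cps1 had 10.4 per 10000 in the pericentral and 13.7 in the periportal bin (log2 ratio 0.39), Ass1 a log2 ratio of 0.37 and Arg1 of 0.95, so all 3 turned to higher periportal levels, and 6 of the 7 urea genes, all but Nags, had ratios above 1 in both libraries. Oat stayed pericentral, with 1.77 and 0.0340 per 10000, and 6 genes were at least 2-fold higher in the periportal bin (1.60% of all genes), the 2 of the full index with Gls2, Gldc, Etnppl and Uroc1. Another 3 were lower (1.78%), Oat, Glul and Prodh. By the same pair of landmarks, 6 were higher (1.75%) and 1 lower (3.59%) in the DDC and cMet library. In the full index EGFP moved with the bins: 10.2% (7.06 to 14.2) of bin 1 cells and 52.6% (46.9 to 58.4) of bin 5 cells had an EGFP UMI, against 9.97% of macrophage-marker cells, whose median depth was 19539 UMIs where bins 1 and 5 had 33348 and 42977. Spp1 was at 3.56 and 58.1 per 10000 and Alb at 310 and 245 in bins 1 and 5. Cps1 and Ass1 changed sign in 1 of 13 alternatives, the pair Cyp2e1 and Cyp2f2, while Arg1 changed sign in 2 and Otc in 3. Those alternatives included cells with 0 EGFP UMIs, whose ratios are not given here. The part of EGFP, Spp1 and Alb in the course of the urea genes was not tested. For the DDC and cMet library Spp1 was at 0.976 and 7.89, Alb at 371 and 406, and the median share of mitochondrial UMIs at 8.75% and 12.6%.

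In the DDC library all 5 tyrosine genes had lower levels in bin 5 than in bin 1, while in the DDC and cMet library Tat was higher at the periportal end. Hpd had 3.45, 2.73, 1.83, 1.40 and 1.45 per 10000 in the DDC library (log2 ratio -1.25, -1.34 to -1.17) and 9.30, 7.58, 7.12, 6.45 and 8.37 in the other (log2 ratio -0.15). Tat had 6.13, 5.25, 4.26, 3.43 and 4.14, and then 8.77, 8.95, 8.95, 9.41 and 13.0, with log2 ratios of -0.57 and 0.56. Gstz1, Hgd and Fah had log2 ratios of -0.64, -0.59 and -0.41 in the DDC library, and between -0.09 and -0.01 in the other.

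Tryptophan genes were mixed. Tdo2 had 4.28 and 4.56 per 10000 in bins 1 and 5 of the DDC library (log2 ratio 0.09) and 10.1 and 14.8 in the other (log2 ratio 0.56). Haao had log2 ratios of -0.87 and -0.06, Kmo of -0.63 and 0.66, and Acmsd of -0.93 and 0.61. Afmid had log2 ratios of -0.30 and 0.14, Kynu of 0.33 and 0.63, and Qprt of 0.23 and 0.08. The remaining genes had smaller or one-sided differences. Aldh4a1 had -0.99 and -0.05, Prodh -0.75 and -0.27, Amt -0.76 and -0.08, Agxt -0.78 and 0.43, and Gpt -0.62 and 0.34. Otc had -0.04 and 0.28, Slc25a15 -0.68 and 0.18, and Glud1 -0.08 and -0.34. The branched chain genes lay between -0.34 and -0.17 and between 0.04 and 0.21.

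Of the related lists, Sdsl followed Sds in zonation, with log2 ratios of 2.48 and 1.21, and Rhbg, an ammonium transporter of pericentral cells, followed Glul and Oat with -2.19 and -1.72. Of 37 measured genes of other breakdown steps, 1 was at least 2-fold higher and 3 lower in bin 5 of the DDC library, and 1 higher and 1 lower in the other. The lower one in the latter was Csad, an enzyme of taurine synthesis, with 2.58 and 0.712 per 10000 in bins 1 and 5. Of 12 regulators, Nr1i3 was lower in bin 5 of both libraries (log2 ratios -2.35 and -1.78). Onecut1 was higher in that of the DDC library alone among the regulators (1.03, and -0.62 in the other).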

How the data were processed

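The authors deposited counts: UMI counts per gene and barcode of 2 droplet libraries, whole numbers with no normalization, with gene and barcode lists as text. Per the file headers the matrices were written by Cell Ranger 5.0.1, whereas Cell Ranger 6.0.1, Seurat 4.0.1 and mm10 are listed per the submitters' processing notes. For the choice of barcodes by the authors, the rule was not given in the sources used here. No doublet caller was run, so doublets remain possible.

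The genes and lists were chosen with earlier results of these data known. Every gene of the list is accounted for. The rule for levels on both sides was up to 3 genes per pathway with the largest log2 ratio in a comparison; levels of further genes, such as Cps1, Ass1, Nags, Oat and Glud1 between the libraries, were added after their values were seen. Promoter windows of Hal and Hgd are shown in place of those of Glud1 and Qprt, which the rule named. UMIs were summed over a set of cells and divided by that set's total. Levels have exact Poisson 95% intervals, ratios exact conditional ones and shares Clopper-Pearson ones. PCR copies and free RNA are not covered by them. Genes needed 50 UMIs over both sides, and 2-fold was the threshold. A side with 0 UMIs would be set at 3 UMIs. No test was possible, since each group is 1 library and bins of cells are not replicates. Counts were also simulated from the Poisson model that the intervals assume, with no spread between cells, so coverage near 95% follows from that model. The interval of an unchanged gene held the true ratio in 95.1%, 96.3%, 95.8% and 95.6% for the library, EGFP and 2 zonation comparisons. For genes simulated at log2 ratios of -2, -1, 1 and 2 the share ranged from 88% to 100%.

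The alternatives were other cell filters, Alb thresholds, scaling, thinning, depth, bins and landmarks. The tools were scipy 1.17.1, numpy 2.4.6, matplotlib 3.10.9 and pandas 2.3.3 under Python 3.11.15. Promoter windows come from RefSeq, build GRCm38.p6, which is mm10.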

Additional observations from a re-analysis of the deposited data

Results flagged for a closer look

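Cps1, Tat, Kmo and Acmsd of the list had opposite directions between the end landmark bins of the 2 libraries, each by at least 0.5 on the log2 scale. They were higher in the pericentral bin of the DDC library and in the periportal bin of the DDC and cMet library. The difference in log2 ratio (DDC and cMet minus DDC) was 1.39 for Cps1, 1.13 for Tat, 1.29 for Kmo and 1.54 for Acmsd. The difference was not tested, since each library is 1 sample. The periportal bins also differed in their landmarks, with Cyp2f2 at 2.29 per 10000 in the DDC library and 12.0 in the other, and Hsd17b13 at 15.1 and 8.48. Whether they hold like cells was not tested. When Cyp2e1 and Cyp2f2 alone were the landmarks, the log2 ratios in the DDC library were 0.39 for Cps1, 0.03 for Tat, 0.19 for Kmo and -0.13 for Acmsd, and those in the other library were 0.72, 0.62, 0.78 and 0.75. That setting also kept fewer cells of the DDC library, as given above.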

How the results depend on the processing

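All 12 genes past 2-fold between the libraries, all 12 past 2-fold with EGFP, and all 5 and 6 past 2-fold in zonation kept their direction under the 11, 14, 13 and 12 alternatives run in which they had enough UMIs. Over all genes of the list, 34, 30, 26 and 32 of 37 kept it. Not every alternative could change a direction. A minimum of 200 UMIs per gene leaves each ratio as it is, and centring on the median of all genes could not reverse a gene past 2-fold. Between the libraries, the number of higher genes was 19 when centred on the median of all genes, and 1 gene, Glul, was past 2-fold lower with means over cells and with cells thinned to 2000 UMIs. With EGFP, the lower genes numbered 20 with no Alb threshold, 4 with Alb of at least 200, 5 against the bin above 0 to below 1, and 6 within landmark bins 4 and 5. With Alb of at least 200, and with EGFP of 2 or more as the top bin, 1 gene, Sds, was higher. In the zonation of the DDC library, the higher genes numbered 1 with stricter cells, with Alb of at least 50, when centred, without the 5% of cells with most UMIs, with 3 bins, with cells of at least 10000 UMIs and without Pigr as a landmark. They numbered 5 with Alb of at least 200 and in cells with 0 EGFP, and 6 with Cyp2e1 and Cyp2f2 alone. The lower genes numbered 8 with Alb of at least 50, and 5 when centred, without the deepest 5% and without Pigr. In the DDC and cMet library 3 genes were higher with 3 bins. The cause of these changes was not tested. Counts under alternatives for which no share of all genes is given above are not set against all genes. The comparators in EGFP, the landmark bins 4 and 5 and the removal of Pigr were chosen after seeing the data.

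A comparison by tdTomato, planned for the DDC and cMet library, could not be made, because 2 tdTomato UMIs were found in it, under the floor of 3, and its alternatives were not run. No paired analysis was possible because each group is 1 library. Depth limits Oat, with 12 UMIs in the bin of most EGFP, and Acmsd, with 12.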

Other observations

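Cells of the DDC library with EGFP of 3 or more but Alb below 100 per 10000, 99 of them, were outside the Alb-high cells, and entered the EGFP comparison where the Alb threshold was lower or absent. They had at least 10000 UMIs and less than 10 per 10000 of markers of other cells, and Spp1 stood at 201 per 10000. Their levels of Cps1 and Ass1 were 1.23 and 2.79 per 10000, where the 58 Alb-high cells of the same EGFP bin had 4.11 and 7.06. Qprt (1.63, beside 1.55), Kynu (0.603, beside 0.723) and Asl (1.03, beside 1.23) were closer to the Alb-high levels.

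Levels followed Alb to very different extents among the 37 genes. In the DDC library, from cells with Alb below 50 per 10000 to cells with 400 or more, Cps1 went from 1.08 to 14.6 per 10000, Arg1 from 0.374 to 5.88 and Haao from 0.0939 to 1.17. Over the same bands Qprt went from 1.45 to 1.53, Kynu from 0.495 to 0.680 and Hibch from 0.298 to 0.370.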
